A study of Arabidopsis thaliana with 12 samples.

Results

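LHCB1 and LHCB2 are the nuclear gene subfamilies that encode the major light-harvesting proteins of photosystem II in Arabidopsis. Their members were chosen by locus, as the 5 LHCB1 genes (LHCB1.1, AT1G29920, LHCB1.2, AT1G29910, LHCB1.3, AT1G29930, LHCB1.4, AT2G34430, and LHCB1.5, AT2G34420) and the 3 LHCB2 genes (LHCB2.1, AT2G05100, LHCB2.2, AT2G05070, and LHCB2.3, AT3G27690). These are 8 of the 33601 loci with counts, and the rule uses no measured value. RNA came from whole Columbia seedlings aged 3 days, which had received white light for 3 h to start germination and then stayed in the dark. The 4 groups of 3 biological replicates were wild type (WT dark), wild type on medium with 0.5 mM lincomycin (WT dark linc), the pifq mutant (pifq dark), which lacks PIF1, PIF3, PIF4 and PIF5 throughout the plant, and pifq with the same lincomycin (pifq dark linc). No group received light after germination.

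The LHCB1 and LHCB2 proteins bind chlorophyll a and b, assemble into trimers, and pass the energy of absorbed light to the photosystem II core. LHCB1 is the more abundant protein, and LHCB2 is the one whose phosphorylation is needed for the movement of antenna between the photosystems, called state transitions. PIFs are basic helix-loop-helix factors that hold photosynthesis genes down in the dark, and are removed when phytochrome is activated by light. Lincomycin blocks protein synthesis in the plastid, and nuclear photosynthesis genes are known to respond to such damage through plastid-to-nucleus (retrograde) signalling.

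Totals were between 11495950 and 17612505 counts per library, and all 8 genes had counts in each of the 12 libraries. Levels are given as normalized CPM, that is, counts scaled to CPM with TMM-adjusted library totals. Reads were counted on the last 500 bases of each transcript, so levels of different genes refer to the same length, before any loss of reads that match several transcripts. Of the 4 targeted genes, PIF1, PIF3 and PIF5 were SSTF lower in pifq dark (SSTF calls needed a change of 2-fold or more and an adjusted p no higher than 0.01), and PIF4 was not, with a mean of 12.8 normalized CPM there and 8.29 in WT dark (log2 fold change 0.62). PORA, a protochlorophyllide reductase of dark-grown seedlings, was between 882 and 1319 normalized CPM in WT dark and between 226 and 269 in pifq dark. The summed level of 5 root markers (CASP1, CASP2, COBL9, EXPA7 and EXPA18) was between 835 and 1005 in WT dark and between 354 and 509.5 in pifq dark. CASP1 and CASP2 made up nearly all of it, and only these 2 of the 5 passed the filter, with CASP2 SSTF lower. The means of EXPA7 (1.08 in WT dark, 1.41 in pifq dark) and COBL9 (0.69 and 1.06) went the other way, and EXPA18 was at 0.67 and 0.51. The summed level of 3 guard cell markers was between 4.21 and 7.04 in WT dark and between 17.8 and 22.0 in pifq dark, with SPCH at 2 counts or fewer in each library. Most of it was FAMA (means of 4.62 and 17.6), of the 3 the only 1 that passed the filter. For 9 seed reserve genes the sum was between 66.2 and 130 in WT dark and between 22.5 and 37.7 in pifq dark. CRA1 made up much of it (means of 67.2 and 16.2). Only 3 of the 9 passed the filter, of which 2 were SSTF lower, and low genes such as CRU2 (2.92 and 2.64) moved little. Within a genotype, the root sum in libraries with lincomycin (912 to 994 in WT dark linc, 432 to 553 in pifq dark linc) overlapped that in libraries without it. The low EXPA7 did not overlap, at 0.757 to 1.35 in WT dark and 1.52 to 2.60 in WT dark linc. In pifq EXPA7 was at 0.799 to 1.73 without lincomycin and 2.16 to 3.69 with it, and EXPA18 was also higher with it there. The guard cell sum was 3.90 to 4.63 in WT dark linc, which overlapped WT dark. It was 11.8 to 12.6 in pifq dark linc, below all pifq dark libraries. The seed reserve sum overlapped in both genotypes, at 41.7 to 132 in WT dark linc and 14.35 to 34.2 in pifq dark linc. PORA was SSTF lower with lincomycin in both, with log2 fold changes of -1.24 in WT and -1.85 in pifq. The part of tissue make-up in the genotype and lincomycin differences below was not tested. In whole seedlings, fewer cells that transcribe a gene and less RNA per cell cannot be told apart.

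Because these genes are close copies, the end of each coding region is given first, to show how little they differ. The last 60 coding bases are printed 5′ to 3′ from the TAIR10.1 reference of RefSeq, with the positions that vary within the subfamily in capitals.
LHCB1.1 (chr1:10475089-10475148, minus strand): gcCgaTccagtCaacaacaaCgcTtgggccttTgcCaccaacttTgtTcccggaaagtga
LHCB1.2 (chr1:10472443-10472502, minus strand): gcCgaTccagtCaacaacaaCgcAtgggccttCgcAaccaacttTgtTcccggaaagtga
LHCB1.3 (chr1:10478815-10478874, plus strand): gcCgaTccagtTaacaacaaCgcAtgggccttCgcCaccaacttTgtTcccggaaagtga
LHCB1.4 (chr2:14525559-14525618, plus strand): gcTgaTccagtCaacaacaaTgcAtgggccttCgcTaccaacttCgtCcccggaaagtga
LHCB1.5 (chr2:14522716-14522775, minus strand): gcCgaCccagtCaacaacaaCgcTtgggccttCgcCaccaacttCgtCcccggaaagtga
LHCB2.1 (chr2:1823449-1823508, minus strand): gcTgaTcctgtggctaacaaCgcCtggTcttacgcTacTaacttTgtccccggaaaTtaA
LHCB2.2 (chr2:1799436-1799495, minus strand): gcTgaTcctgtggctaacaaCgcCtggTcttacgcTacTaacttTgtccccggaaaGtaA
LHCB2.3 (chr3:10256862-10256921, plus strand): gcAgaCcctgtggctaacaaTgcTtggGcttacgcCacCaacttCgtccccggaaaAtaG

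Over whole coding regions LHCB1.2 and LHCB1.3 were 96.4% identical, LHCB2.1 and LHCB2.2 were 96.6% identical, and LHCB2.3 was 84.6% identical to LHCB2.2. Many coding stretches of 50 bases matched the coding region of another member with at most 1 mismatch. The share was 1.46% for LHCB2.3 and between 52.3% (LHCB1.4) and 69.2% (LHCB2.1) for the other members. The counted region also holds the untranslated end, and between 41 and 337 of its 500 bases were coding. Compared only end with end, the genes separated better. Of the stretches of 50 bases in the last 500, none of LHCB1.1 or LHCB2.3 matched the last 500 bases of another transcript with at most 1 mismatch. Matches to parts of other transcripts outside their last 500 bases were not searched here. The share that did so was 30.4% for LHCB1.2, 28.8% for LHCB1.3, 12.2% for LHCB1.5, 10.6% for LHCB1.4 and 7.76% for each of LHCB2.1 and LHCB2.2, and no stretch was shared between LHCB1 and LHCB2. For stretches of 36 bases the share was larger, at 40.9% for LHCB1.2, 37.6% for LHCB1.3, 18.5% for LHCB1.5, 15.1% for LHCB1.4, 12.5% for LHCB2.1, 11.6% for LHCB2.2 and 5.81% for LHCB1.1, and LHCB2.3 again had none. At that length LHCB3, which encodes another subunit of the trimers, shared up to 12 stretches with LHCB1 members. The read length and the treatment of reads with several matches are not given in the sources used here. Values of LHCB1.2 and LHCB1.3, whose ends share the most with one another, are therefore uncertain as a split. To an extent that is not known, so are those of the other members that share stretches. The main results are therefore also given for the sum of each subfamily.

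LHCB1.1, LHCB1.2 and LHCB1.3 lie close together on chromosome 1, LHCB1.4 and LHCB1.5 on chromosome 2, LHCB2.1 and LHCB2.2 on another part of chromosome 2, and LHCB2.3 on chromosome 3. The LHCB1 genes have 1 exon and the LHCB2 genes have 2. The upstream sequences of 4 members are shown as examples picked after their values were seen, from both subfamilies and with and without motif matches. Each is the 250 bases before the annotated transcript start in TAIR10.1, with matches to the searched motifs in capitals.
LHCB1.3 (chr1:10477635-10477884, plus strand): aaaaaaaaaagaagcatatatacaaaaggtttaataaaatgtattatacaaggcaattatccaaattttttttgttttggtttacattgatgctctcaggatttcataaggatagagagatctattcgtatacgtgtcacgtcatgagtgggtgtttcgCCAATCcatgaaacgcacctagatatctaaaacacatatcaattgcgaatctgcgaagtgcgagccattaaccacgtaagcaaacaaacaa
LHCB1.4 (chr2:14524357-14524606, plus strand): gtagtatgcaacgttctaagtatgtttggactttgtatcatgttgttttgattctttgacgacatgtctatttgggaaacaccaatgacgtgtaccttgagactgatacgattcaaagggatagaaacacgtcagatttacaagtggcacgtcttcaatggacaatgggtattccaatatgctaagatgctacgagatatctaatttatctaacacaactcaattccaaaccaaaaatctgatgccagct
LHCB2.1 (chr2:1824481-1824730, minus strand): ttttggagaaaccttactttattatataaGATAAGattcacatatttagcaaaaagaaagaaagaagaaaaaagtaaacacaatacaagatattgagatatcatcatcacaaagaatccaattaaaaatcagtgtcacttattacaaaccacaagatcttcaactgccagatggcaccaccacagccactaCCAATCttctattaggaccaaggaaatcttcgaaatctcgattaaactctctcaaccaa
LHCB2.3 (chr3:10255691-10255940, plus strand): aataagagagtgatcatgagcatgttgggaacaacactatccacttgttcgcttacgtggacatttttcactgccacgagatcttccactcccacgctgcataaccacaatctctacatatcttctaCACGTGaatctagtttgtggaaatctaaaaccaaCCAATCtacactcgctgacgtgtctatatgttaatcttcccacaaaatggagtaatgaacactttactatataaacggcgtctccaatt

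The motifs, searched on both strands, were CCAATC (a sequence associated with the GLK factors that activate antenna genes), CACGTG (the G-box, which PIFs and HY5 bind), CACATG (an E-box that PIFs bind) and GATAAG (the I-box of light-regulated promoters). CCAATC was in the upstream 250 bases of 5 of the 8 members, at -91 in LHCB1.3, -89 in LHCB1.5, -59 in LHCB2.1, -53 in LHCB2.2 and -89 in LHCB2.3, against 10.2% of 27443 genes. CACGTG was in LHCB2.3 alone of the members, at -123, against 6.57% of all genes. GATAAG was in LHCB2.1 alone, at -221, against 12.4%. CACATG was in none of the members and in 10.9% of all genes. A match of letters is a description and does not show that a factor binds there. Over the whole upstream sequences LHCB2.1 and LHCB2.2 were 63.2% identical, and the other pairs were between 44.4% and 53.6% identical.

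**Figure D1:**
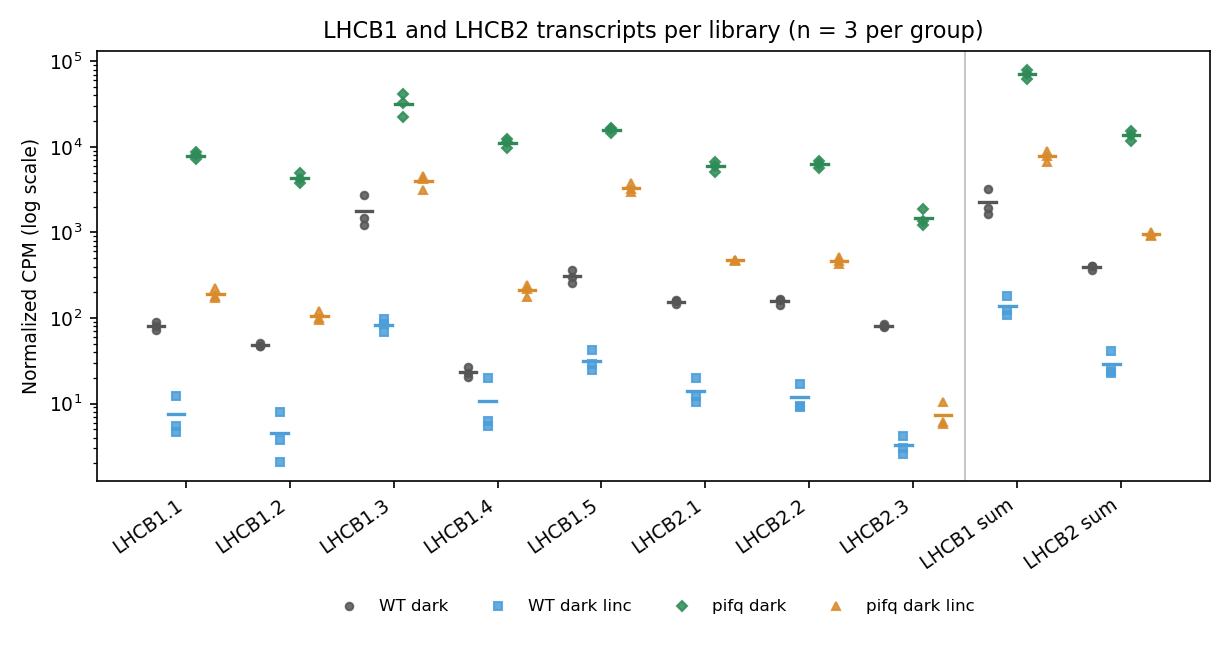
Normalized CPM (log axis) of the 8 genes and of the LHCB1 and LHCB2 sums in each of the 12 libraries, by group, with 1 point per library and a short line at the group mean of 3. Every gene is highest in pifq dark, and LHCB2.3 is the gene whose pifq dark linc libraries (5.77 to 10.5) lie below its WT dark libraries (79.5 to 85.8).

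The first comparison asked how loss of the PIFs changed these transcripts in the dark. In WT dark the 8 genes together took between 0.220% and 0.382% of a library's counts, and in pifq dark between 6.82% and 7.43%. The LHCB1 sum was 1639, 3223 and 1934 normalized CPM in the WT dark libraries and 72035, 78609 and 63058 in the pifq dark libraries. The LHCB2 sum was 369, 409 and 404 in WT dark and 13737, 11869 and 15405 in pifq dark. Neither sum overlapped between the genotypes. By the quasi-likelihood test of edgeR (Benjamini-Hochberg adjusted), the LHCB1 sum rose by 4.97 ± 0.30 on the log2 scale (SE, adjusted p = 2.91e-07) and the LHCB2 sum rose by 5.11 ± 0.19 (adjusted p = 2.42e-08). All 8 genes passed the filter and 8 were SSTF higher, and 6.60% of the 13456 genes tested were SSTF higher.

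The size of the rise was far from equal among the genes. LHCB1.4 had 26.6, 23.0 and 20.6 normalized CPM in WT dark, the lowest level of the 8, and 11302, 9731 and 12420 in pifq dark, the level with rank 3. It rose by 8.89 ± 0.23 on the log2 scale, that is 475-fold, with an adjusted p of 3.44e-09. LHCB1.1 rose by 6.61 ± 0.20 (from a mean of 80.9 to 7937) and LHCB1.2 by 6.47 ± 0.19 (from 48.7 to 4319), both with that same adjusted p.

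LHCB1.3 moved least within LHCB1. Its WT dark libraries held 1218, 2709.7 and 1480.5 normalized CPM, with replicate 2 well above the others, and its pifq dark libraries held 32193, 41474 and 22669. The fitted rise was 4.15 ± 0.35 (17.7-fold, adjusted p = 3.36e-06), and it was between 3.78 and 4.57 over all alternatives. LHCB1.5 rose by 5.66 ± 0.22, from a mean of 309.9 to 15715. Among LHCB2 genes, LHCB2.1 rose by 5.25 ± 0.19 and LHCB2.2 by 5.31 ± 0.18, to means of 5926 and 6263. LHCB2.3 had 79.9, 79.5 and 85.8 in WT dark and 1368, 1210 and 1864 in pifq dark, a rise of 4.17 ± 0.19 (18-fold, adjusted p = 3.56e-08). LHCB1.4 was last in WT dark, and LHCB2.3 was last in pifq dark.

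The second comparison asked what lincomycin did in the wild type, where these genes were already low. The 8 genes took between 0.0145% and 0.0232% of the counts of WT dark linc libraries. The LHCB1 sum was 108, 126 and 179 normalized CPM there and fell by 4.05 ± 0.25 on the log2 scale (adjusted p = 4.88e-08). The LHCB2 sum was 23.96, 22.8 and 41.0 and fell by 3.75 ± 0.20 (adjusted p = 9.67e-09). Of the 8 genes, 7 were SSTF lower, against 1.00% of the 13455 genes tested. All 8 were highest in replicate 3 of WT dark linc. LHCB2.3 passed the filter in this comparison only through its 3 WT dark libraries, the group where it is high, so its call is a description. LHCB1.2 reached 5 CPM in 4 libraries, in WT dark linc only in replicate 3. It too would not have passed without the group where it is high, and its call is a description as well.

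LHCB2.3 fell most, from the WT dark values above to 2.60, 3.04 and 4.15 (34, 42 and 76 counts), and fell by 4.62 ± 0.17 (24.6-fold, adjusted p = 1.78e-10). LHCB1.3 fell by 4.44 ± 0.27, to 68.1, 84.6 and 96.7. The other called genes changed by between -3.29 (LHCB1.5) and -3.71 (LHCB2.2) on the log2 scale, and without WT dark linc replicate 3 LHCB1.2 was at -4.07. LHCB1.4 was not called, with 6.28, 5.50 and 19.9 normalized CPM in WT dark linc (82, 76 and 365 counts). Each of these lay below the lowest WT dark library (20.6), and the log2 fold change was -1.11 ± 0.33 with an adjusted p of 0.0600. Without WT dark linc replicate 3 it was -2.0 (adjusted p = 5.61e-05), and without WT dark replicate 2 it was -1.12 (adjusted p = 0.00734). It was called in 4 of the 13 alternatives, whose adjusted p was between 1.75e-06 and 0.275.

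In pifq, lincomycin lowered every member from a high level. The LHCB1 sum was 7845, 8899 and 6591 normalized CPM in pifq dark linc, and fell by 3.21 ± 0.21 on the log2 scale from pifq dark (9.24-fold, adjusted p = 2.6e-07). The LHCB2 sum was 909.99, 1009 and 928, and fell by 3.86 ± 0.18 (14.5-fold, adjusted p = 3.78e-08). All 8 genes were SSTF lower, against 4.54% of the 13142 genes tested.

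LHCB2.3 was the lowest member, with 5.77, 10.5 and 6.04 normalized CPM (76, 145 and 77 counts), and fell by 7.65 ± 0.29, 200.3-fold (adjusted p = 5.44e-09). LHCB1.4 fell by 5.72 ± 0.21 (52.9-fold), to 174, 244 and 220. LHCB1.1 and LHCB1.2 fell by 5.37 ± 0.19 and 5.38 ± 0.19. At the other end, LHCB1.5 kept 3193, 3785 and 2981 normalized CPM and fell by 2.26 ± 0.17 (4.78-fold, adjusted p = 1.03e-06). LHCB1.3 kept 4211, 4524 and 3109 and fell by 3.04 ± 0.25. LHCB2.1 and LHCB2.2 lay between these, at -3.66 ± 0.17 and -3.75 ± 0.17.

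**Figure D2:**
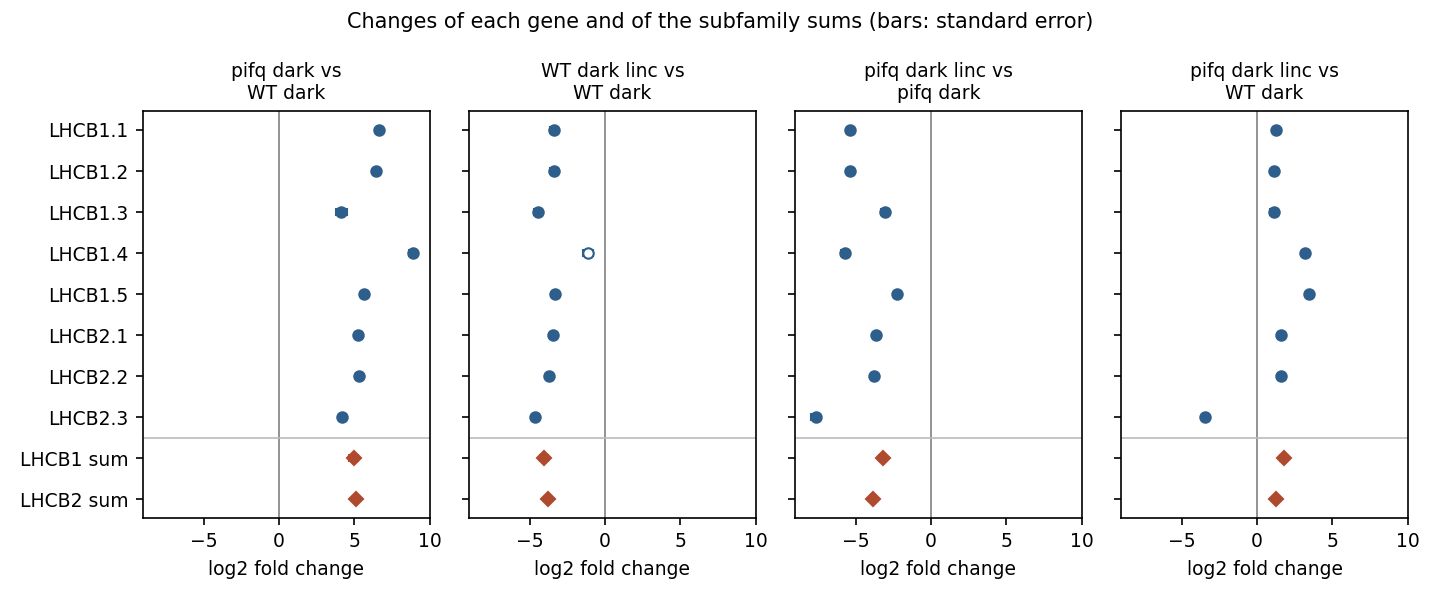
Log2 fold changes (points, with bars for the standard error) of the 8 genes (circles) and of both subfamily sums (diamonds) in 4 comparisons, from edgeR fits on 3 against 3 libraries. The open circle is LHCB1.4 in WT dark linc against WT dark (-1.11), the value that was not called, and LHCB2.3 (-3.45) is the point left of 0 in the panel of pifq dark linc against WT dark.

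Compared with untreated WT dark, the subfamilies stayed higher in pifq dark linc. The LHCB1 sum was higher by 1.78 ± 0.24 on the log2 scale (adjusted p = 4.08e-05) and the LHCB2 sum by 1.27 ± 0.13 (adjusted p = 4.03e-06). Here 7 of the 8 genes were SSTF higher, against 5.82% of the 13791 genes tested, and 1 was SSTF lower, against 6.45%. That gene was LHCB2.3, at -3.45 ± 0.19 (10.9-fold lower, adjusted p = 9.13e-09). LHCB1.5 was higher by 3.43 ± 0.18 and LHCB1.4 by 3.19 ± 0.16, while LHCB1.1, LHCB1.2 and LHCB1.3 were higher by between 1.11 and 1.26. LHCB1.3 was at 1.13 ± 0.26 (adjusted p = 0.00254, range over alternatives 3.24e-06 to 0.0186). It lost its SSTF call with DESeq2 (1.14, adjusted p = 0.0133) and without WT dark replicate 1 (0.91, adjusted p = 0.0128). The call was also lost without WT dark replicate 3 (1.00, adjusted p = 0.0186) and without pifq dark linc replicate 2 (1.03, adjusted p = 0.0165). Its direction was kept in each.

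With lincomycin in both genotypes, pifq again had more of every member. All 8 were SSTF higher than in WT dark linc, against 3.75% of the 13557 genes tested. LHCB1.5 differed most (6.69 ± 0.22, 104-fold, adjusted p = 1.55e-15) and LHCB2.3 least (1.16 ± 0.24, 2.23-fold, adjusted p = 0.000647). LHCB2.3 passed the filter here only through its 3 pifq dark linc libraries, the group where it is high, so its call is a description. It lost the call without pifq dark linc replicate 2 (0.83, adjusted p = 0.0119, range over alternatives 9.87e-08 to 0.0119). The call of LHCB1.2 is a description as well, because it reached 5 CPM in 4 libraries, in WT dark linc only in replicate 3. The sums were higher by 5.81 ± 0.22 for LHCB1 and 5.005 ± 0.20 for LHCB2. These comparisons share libraries with the earlier ones, so they are other views of the same levels and not separate evidence.

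Whether lincomycin acted to the same extent in both genotypes was tested as the difference between its log2 responses, pifq minus WT, over all 12 libraries (called here at an adjusted p up to 0.05). The response was more negative in pifq for 4 genes, against 3.75% of the 14040 genes tested, and less negative for 2, against 1.23%. LHCB1.4 had the largest difference, -4.60 ± 0.46 (adjusted p = 1.88e-05), followed by LHCB2.3, at -3.01 ± 0.32 (adjusted p = 3.49e-05). LHCB1.2 was at -2.0 ± 0.37 and LHCB1.1 at -1.95 ± 0.33 (adjusted p = 0.0027 and 0.00156). For LHCB1.3 the difference was 1.41 ± 0.38 (adjusted p = 0.0353) and for LHCB1.5 it was 1.04 ± 0.26 (adjusted p = 0.0272). The call of LHCB1.3 was lost when any 1 of 8 libraries was left out, and that of LHCB1.5 when any 1 of 6 was. Among these was WT dark replicate 2, without which LHCB1.3 was at 0.99 (adjusted p = 0.0737) and LHCB1.5 at 0.90 (adjusted p = 0.0566). For LHCB2.1 and LHCB2.2 no difference was detected, at -0.20 ± 0.26 and -0.04 ± 0.27.

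The subfamily sums hid these opposite members. The LHCB1 sum had a difference of 0.85 ± 0.33 (adjusted p = 0.195) and the LHCB2 sum of -0.10 ± 0.26 (adjusted p = 0.923), neither of them called. LHCB1.3 and LHCB1.5, with positive differences, made up most LHCB1 counts in every group, and the members with negative differences were the less abundant ones.

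**Figure D3:**
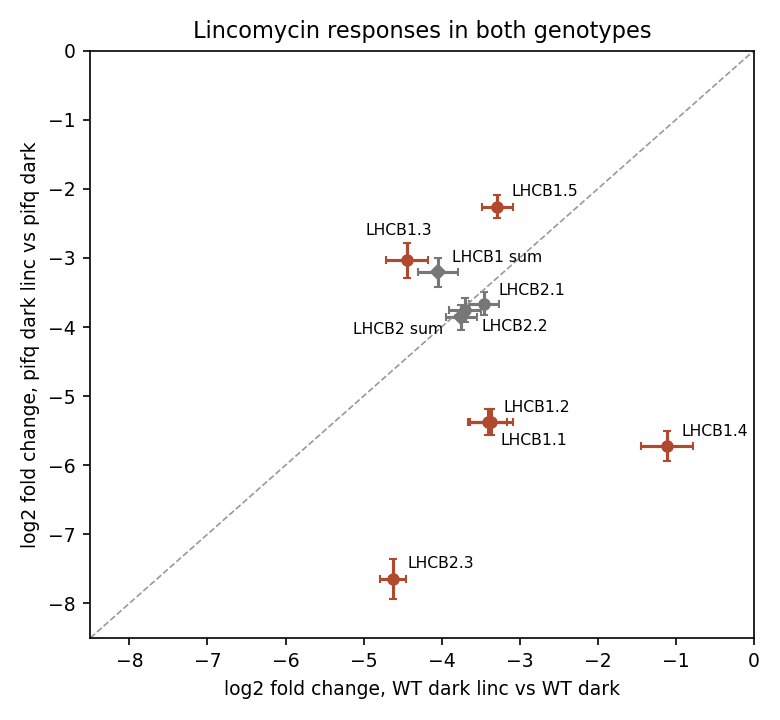
The log2 fold change under lincomycin in pifq (vertical axis) against that in WT (horizontal axis) for the 8 genes (circles) and both sums (diamonds), with bars for the standard errors and a dashed line where the responses are equal. Red points differed between genotypes by the interaction test and gray points did not, and LHCB1.4 (-1.11 in WT, -5.72 in pifq) lies farthest from the line.

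Another way to express the response in pifq is reversion, the share of the pifq rise above WT dark that was removed by lincomycin, computed from mean CPM per group, scaled by library totals alone. A value of 100% means a return to WT dark. Reversion was 90.2% for the LHCB1 sum and 94.9% for the LHCB2 sum. It was 75.7% for LHCB1.5, 91.4% for LHCB1.3, 93.3% for LHCB2.1 and 93.7% for LHCB2.2. It was 97.9% for LHCB1.4, 98.3% for LHCB1.1 and 98.4% for LHCB1.2. Being a share of each gene's own rise, reversion does not rank the genes by closeness to WT dark. In pifq dark linc LHCB1.4 was still higher than in WT dark by 3.19 on the log2 scale, and LHCB1.3 by 1.13. LHCB2.3 went past its starting level, at 107%, and no other member was over 100%. When replicates of one number were left out, the value of LHCB1.5 was between 74.7% and 76.6% and that of LHCB2.3 between 107% and 108%. The scaling mattered more: with TMM-normalized CPM they were 80.5% for LHCB1.5 and 105% for LHCB2.3, outside those ranges.

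The order of the members depended on the group. LHCB1.3 was the highest and LHCB1.5 ranked next in each group, with ranges that did not overlap except in pifq dark linc. In WT dark these were followed by LHCB2.2 and LHCB2.1, whose ranges overlapped, then LHCB2.3 and LHCB1.1, which overlapped as well, then LHCB1.2 and LHCB1.4. In pifq dark the order below LHCB1.5 was LHCB1.4, LHCB1.1, LHCB2.2, LHCB2.1, LHCB1.2 and LHCB2.3, and only LHCB2.2 and LHCB2.1 overlapped with their neighbour. In WT dark linc every pair of neighbours from LHCB2.1 downwards overlapped, so the lower ranks there are not resolved. In pifq dark linc LHCB2.1 and LHCB2.2 overlapped, as did LHCB1.4 and LHCB1.1, and LHCB2.3 was far below the rest.

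Shares of the summed subfamily counts do not depend on the scaling of libraries. LHCB1.3 held 78.3% ± 5.1 (SD, n = 3) of LHCB1 counts in WT dark, against 44.5% ± 8.4 in pifq dark. With lincomycin it held 61.5% ± 6.8 in WT and 50.6% ± 3.3 in pifq. LHCB1.5 held 14.3% ± 2.5 in WT dark, and either the drug (23.0% ± 0.50) or the mutation (22.1% ± 1.0) went with a higher share, while both together gave 42.8% ± 2.3. LHCB1.4 rose from 1.13% ± 0.46 of LHCB1 counts in WT dark to 15.9% ± 3.7 in pifq dark, and was at 2.77% ± 0.56 in pifq dark linc and 7.11% ± 3.6 in WT dark linc. LHCB2.3 held 20.8% ± 1.2 of LHCB2 counts in WT dark. Its share was 11.4% ± 1.7 after the drug alone, 10.8% ± 1.2 in the untreated mutant and 0.774% ± 0.23 when both were combined. The group means of LHCB2.1 were between 39.4% and 49.9%, and those of LHCB2.2 between 39.8% and 49.3%.

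These shares were compared between genotypes within treatments, and between treatments within genotypes, with two-sided exact permutation tests (400 arrangements, smallest p = 0.005, 16 tests). LHCB2.3 and LHCB1.5 reached that smallest p for both factors (adjusted p = 0.0114): the LHCB2.3 share was different by -10.3 percentage points in pifq and by -9.66 with lincomycin, averaged over strata, and the LHCB1.5 share was higher by 13.8 and by 14.7. LHCB1.3 reached it for genotype, with a share different by -22.4 points in pifq, LHCB2.2 for genotype (higher by 7.498) and LHCB2.1 for lincomycin (higher by 7.63). The share of LHCB1.4 moved in opposite directions in the strata, higher by 14.8 points in pifq without lincomycin and -4.34 points with it, and its average difference was not past the threshold (exact p = 0.145). The ratio of LHCB1 to LHCB2 counts was 5.70 ± 1.89 for WT dark and 4.79 ± 0.63 for WT dark linc, with 5.32 ± 1.27 for pifq dark and 8.18 ± 0.94 for pifq dark linc. Averaged over strata, no difference in its log2 value was detected by genotype (exact permutation p = 0.16) or lincomycin (exact permutation p = 0.37), but the strata went opposite ways. The genotype difference was -0.08 without lincomycin and 0.77 with it, and the lincomycin difference was -0.21 in WT and 0.64 in pifq. The ratios of pifq dark linc (7.10 to 8.82) overlapped neither those of pifq dark (4.09 to 6.62) nor those of WT dark linc (4.36 to 5.51).

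**Figure D4:**
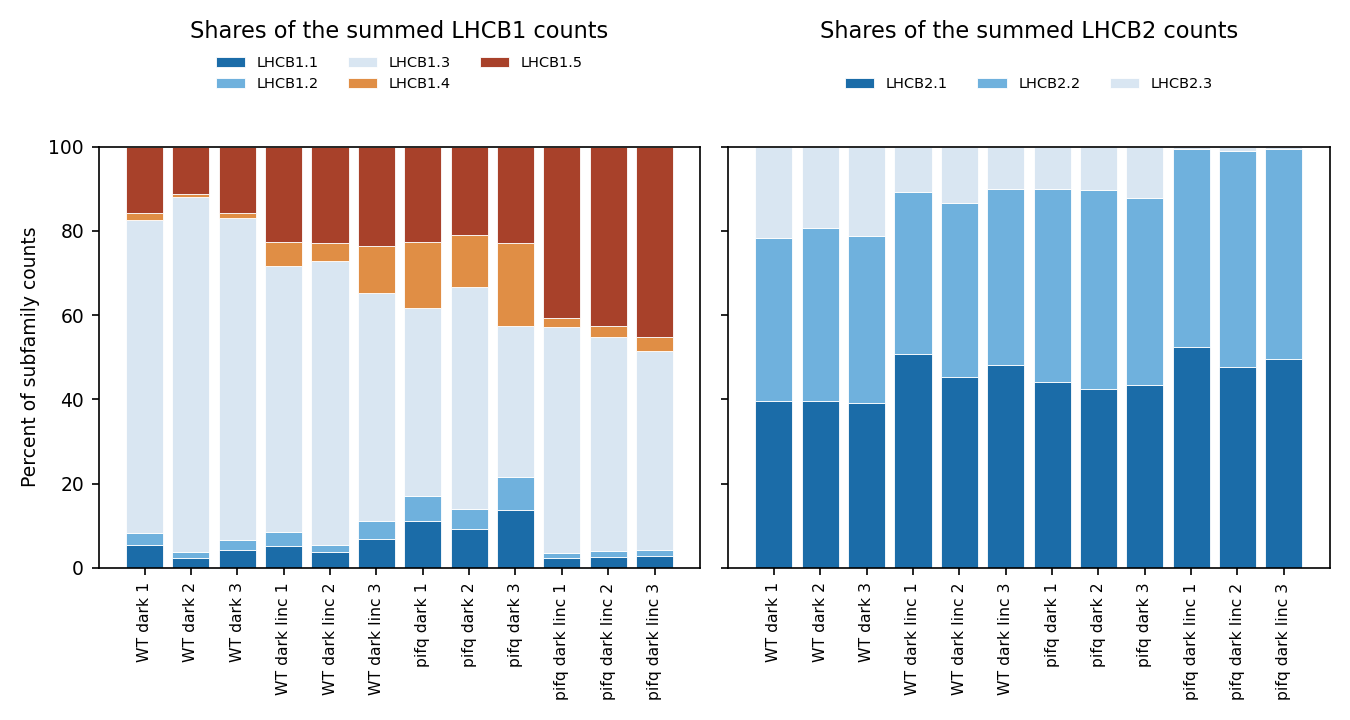
Percent of the summed LHCB1 counts (left) and LHCB2 counts (right) that each gene held, as 1 stacked bar per library that adds up to 100%. The LHCB1.5 segment is widest in the pifq dark linc libraries (40.7% to 45.2%), and the LHCB2.3 segment is nearly absent there (0.634% to 1.04%).

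The genes whose log2(normalized CPM + 1) followed each subfamily sum most closely over the 12 libraries were, for LHCB1, AT2G35260 (Pearson r = 0.996), PSAG, a photosystem I subunit (0.992), GUN5, a subunit of the magnesium chelatase of chlorophyll synthesis (0.988), APE2, a triose phosphate translocator of the chloroplast envelope (0.987), and LHCA2, a photosystem I antenna gene (0.986). For LHCB2 they were LHCA3 (0.996), LHCA2 (0.995), LHCB6, a minor antenna gene of photosystem II (0.995), AT2G35260 (0.995) and GUN5 (0.994). These values rank 14032 genes over libraries that fall into the 4 groups, so they mostly describe group means. The amplitudes were unlike: LHCB6 rose from a WT dark mean of 291 normalized CPM to 3223 in pifq dark, and AT2G35260 from 21.7 to 90.8. Within the members, LHCB2.3 was least like the LHCB2 sum (0.844), and LHCB2.2 most (0.999).

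Other genes of the light-harvesting pathway were counted by the same calls. Over all genes tested, 6.60% were SSTF higher in pifq dark, and with lincomycin 1.00% were SSTF lower in WT and 4.54% in pifq. Of the 7 other antenna genes of photosystem II (LHCB3, the LHCB4 genes, LHCB5, LHCB6 and LHCB7), 6 were tested and 5 were SSTF higher in pifq dark (median log2 fold change 3.23). The remaining tested gene, LHCB4.3, went the other way (-0.69). With lincomycin, 6 of 6 were SSTF lower in WT and 5 of 5 in pifq, with medians of -2.31 and -3.03. Of 6 photosystem I antenna genes, 6 were SSTF higher in pifq dark (median 3.34), 4 were lower with lincomycin in WT and 6 in pifq (medians -1.96 and -2.75). Some single genes changed as much as the subfamily sums: LHCA1 rose by 5.30 ± 0.20 in pifq dark, and with lincomycin in pifq LHCA1 fell by 3.49 ± 0.19 and LHCB3 fell by 3.46 ± 0.18. Among 5 genes for the targeting and insertion of antenna proteins (the chloroplast SRP subunits, cpFtsY, ALB3 and LTD), 2 were SSTF higher in pifq dark, none was called with lincomycin in WT and 3 were lower with it in pifq.

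Among 5 genes of chlorophyll b synthesis and antenna turnover, 4 were tested and 2 were SSTF higher in pifq dark, against 6.60% of all genes tested. Of the kinases and the phosphatase that act on antenna proteins, 1 of 3 was SSTF higher in pifq dark. GLK1 and GLK2, activators of antenna genes, changed by 0.99 ± 0.18 and 1.47 ± 0.19 on the log2 scale in pifq dark, of which GLK2 was SSTF. With lincomycin GLK1 fell by 1.71 ± 0.18 in WT and by 1.35 ± 0.20 in pifq, and GLK2 changed by -1.09 ± 0.22 and -1.43 ± 0.20, all SSTF. HY5, a light-response activator, fell by 1.32 ± 0.18 in pifq dark, and with lincomycin it was at 0.15 ± 0.13 in WT and -0.06 ± 0.18 in pifq, neither of which was called.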

How the data were processed

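The authors prepared directional libraries from polyA-tailed 3′-end fragments, used Bowtie 0.12.7 to align reads to representative transcripts of TAIR10 (1 mismatch allowed), and kept those in the last 500 bp on the coding strand. The deposited table holds raw counts for each AGI locus, which the authors did not normalize. The labels mention technical duplicate runs, and there is 1 column per library. No other columns were present.

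Counts were compared with the quasi-likelihood test of edgeR 4.0.16 (R 4.3.3), with TMM scaling and Benjamini-Hochberg adjustment over all genes that reached 5 CPM in 2 or more of the libraries fitted. All 8 members passed in every comparison, in some only through the group where they were high. Standard errors are the log2 fold change divided by the square root of the F statistic. The subfamily sums replaced their members in separate fits of the whole table. Scripts were tested on simulated data. The members and gene lists were chosen with earlier results of these data known. All members are named, the other lists are named beside their counts, and the 5 nearest genes per sum by Pearson r. The methods of the study do not say which edgeR test was used.

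The alternatives were RLE size factors, library totals, scaling without genes over 1% of the counts, DESeq2 1.42.0, no filter, 12 libraries in 1 fit, the replicate number as a block, and leaving out each replicate. Same-numbered libraries deviated together in every pair only for pifq dark linc with pifq dark (correlations 0.369 to 0.539). The main fits, also of these groups, did not use a pairing. The block was an alternative only, and it changed no call there. Positions and sequences are those of TAIR10.1, and 3′ ends may differ from the TAIR10 transcripts used for counting.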

Additional observations from a re-analysis of the deposited data

Results flagged for a closer look

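For 6 of the 8 genes the lincomycin response differed between the genotypes by the interaction test of edgeR (quasi-likelihood, adjusted p of at most 0.05). Of the 14040 genes tested, 3.75% were called with a negative difference and 1.23% with a positive one. The differences of the log2 responses, pifq minus WT, were -4.60 for LHCB1.4, -3.01 for LHCB2.3, -2.0 for LHCB1.2, -1.95 for LHCB1.1, 1.41 for LHCB1.3 and 1.04 for LHCB1.5. The 4 negative differences were called under all 18 alternatives. They were smallest in size without WT dark linc replicate 3 for LHCB1.4 (-3.72), LHCB1.2 (-1.31) and LHCB1.1 (-1.38), and this is the library in which all 8 genes stood highest in their group. Positive differences were less secure. LHCB1.3 was between 0.99 and 1.74 over the alternatives, with an adjusted p between 0.00105 and 0.113, and was not called in 9 of the 18: DESeq2 (1.44, adjusted p = 0.0572), and without WT dark linc replicate 1 (1.29), 2 (1.43) or 3 (1.54), WT dark replicate 2 (0.99), pifq dark linc replicate 1 (1.36) or 2 (1.29), or pifq dark replicate 1 (1.41) or 3 (1.21). LHCB1.5 was between 0.88 and 1.37, with an adjusted p between 0.000973 and 0.104, and was not called in 6: without WT dark linc replicate 1 (0.88) or 2 (0.97), WT dark replicate 2 (0.90) or 3 (1.05), or pifq dark linc replicate 1 (1.07) or 2 (0.92).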

How the results depend on the processing

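In the 5 comparisons of groups, every member and sum kept its direction under all alternatives. The calls that changed are given with those comparisons, among them LHCB1.3 with DESeq2 in pifq dark linc against WT dark. Library totals without TMM moved the median gene by -0.37 on the log2 scale in pifq dark against WT dark (525 SSTF higher and 1744 lower, against 888 and 838), by 0.32 in pifq dark linc against pifq dark (563 and 385, against 183 and 596) and by 0.33 in the interaction (1544 and 270, against 172 and 527). With that scaling the interaction was 1.17 for the LHCB1 sum (adjusted p = 0.0181, range over alternatives 0.0181 to 0.423), 0.23 for the LHCB2 sum, 0.13 for LHCB2.1 and 0.30 for LHCB2.2, so the last 3 changed sign. Leaving out 1 library gave 0.50 to 1.08 for the LHCB1 sum, -0.26 to 0.23 for the LHCB2 sum, -0.37 to 0.14 for LHCB2.1 and -0.19 to 0.33 for LHCB2.2, with the highest values without WT dark linc replicate 3. The number of members with a higher interaction was 1 with DESeq2 and between 0 and 2 without single libraries. Reversion with TMM-normalized CPM was 92.0% for the LHCB1 sum, 95.8% for the LHCB2 sum, 80.5% for LHCB1.5 and 105% for LHCB2.3. With 2 libraries per group the exact permutation tests of shares cannot go below 0.0556. With the replicate block, LHCB1.4 in WT dark linc was called (-1.26, adjusted p = 0.00228, range over alternatives 1.75e-06 to 0.275), the LHCB1 sum was at 5.03 in pifq dark against WT dark, and no other call changed. The lowest member counts were 29 to 144 for LHCB1.2 and 34 to 76 for LHCB2.3, in WT dark linc. Counting error is only part of the spread between libraries.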
